A study of Caenorhabditis elegans with 12 samples.

Results

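The genes described here are cyp-13A1 to cyp-13A8, which lie side by side on chromosome II of C. elegans. They are 8 of the 80 genes whose symbol marks them as cytochrome P450 genes, and 8 of the 46726 genes in the deposited table. They were picked by gene name, but the choice was made with the same ascaroside comparison in view. The values that set treated against control cultures are therefore a description of the members and carry no test. All 8 gene identifiers were found, and all 8 passed the filter on low values, a mean over the 6 libraries of 5 or more normalized counts. For cyp-13A8 this rested on the controls, since its mean was 3.32 normalized counts in treated cultures and 7.40 in control cultures, and for cyp-13A3 on the treated cultures (7.74 against 4.54 normalized counts).

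Cytochrome P450 enzymes are haem proteins of the endoplasmic reticulum or the mitochondria that insert an oxygen atom into small lipophilic molecules. They take electrons from a reductase, and act on drugs and plant toxins as well as on the body's own fatty acids and sterols. In C. elegans the family has expanded into tandem arrays, and many of its members are expressed in the intestine. The CYP-13A proteins are among the worm P450s most similar to the mammalian CYP3A enzymes of drug metabolism, and cyp-13A7 is known as a gene induced by foreign compounds. The substrates of the single CYP-13A enzymes are mostly unknown.

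The libraries came from N2 (Bristol wild-type) larvae in late L1. The treated group had 3 cultures given a cocktail of the synthetic ascarosides ascr#8, ascr#3 and ascr#2 (libraries 1 to 3), and the control group had 3 cultures given the ethanol solvent alone (libraries 4 to 6). Ascarosides are the small glycolipids of the dauer pheromone. All 6 were split at 6 h after hatching from one well-fed culture on HB101 bacteria at 20 °C, and RNA was taken 3 h later, so the spread between cultures does not include that between populations. The sample labels state a total dose of 5 µM, whereas the study's methods state a lower one. The libraries of daf-22(ok693) mutants were not analysed here.

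A normalized count is the number of reads on a gene divided by the library's DESeq size factor. The treated libraries had 11133417 to 19116807 reads on genes and the control libraries 14237868 to 18915816. The controls resembled each other less than the treated libraries did. The mean Pearson r with the other libraries of the group was taken across the 14965 genes tested (genes are not independent replicates). It was 0.986 for each treated library. For the controls it was 0.974 (library 4), 0.970 (library 5) and 0.968 (library 6), so library 4 was not the least alike. Control library 4 was the lowest control for 7 of the 8 members and for 35.2% of all genes tested, and values without it are given below.

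In the WBcel235 annotation the cluster runs in the order of the gene numbers, with an annotated pseudogene, cyp-13A9, between cyp-13A3 and cyp-13A4. Only cyp-13A7 lies on the forward strand. The sources name different genome builds (WBcel215 in the methods, WBcel235 in the processing notes), so coordinates are not given. The members have 5 to 10 exons and 1594 to 2258 bases of exon. The inner exons are of equal length in most of them. In cyp-13A3, cyp-13A4, cyp-13A5, cyp-13A6 and cyp-13A7, exons 2 to 5 measure 332, 100, 557 and 144 bases, and across the whole annotation these 5 genes alone carry that run of 4 exons. In cyp-13A2 the exons of 332 and 100 bases are followed by one of 542 bases. cyp-13A1 and cyp-13A8 share another pair, of 297 and 257 bases. Reads of 50 bases that aligned to more than one place were not counted on genes, and they made up 33.0% to 40.3% of a treated column and 31.6% to 40.4% of a control column. How many of them came from these paralogs is not known, so levels of single members are uncertain to that extent.

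The members cyp-13A4, cyp-13A5, cyp-13A6 and cyp-13A7, which follow one another in the array, were lower in all treated cultures than in any control culture. So was cyp-13A2, by a narrow margin. The median log2 fold change of the 8 members was -1.14, against 0.0019 over all 14965 genes tested. Treated and control values did not overlap, with treated below, for 5 of the 8 members, and for 9.53% of all genes tested in that direction. The median was -1.32 without control library 4 and -0.88 without treated library 2. The fold changes below come from limma on log2(normalized count + 1), a scale on which the pseudocount of 1 affects the change of genes with few reads.

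cyp-13A4 was the member that differed most. It had 9.27, 30.4 and 23.5 normalized counts in treated libraries 1 to 3 and 51.3, 131 and 131 in control libraries 4 to 6. The 2 higher controls agreed closely and library 4 stood well under them, yet even library 4 exceeded the highest treated culture. The means were 21.1 ± 10.8 normalized counts in treated and 105 ± 46.0 in control cultures (SD, n = 3 each). The log2 fold change was -2.28 (standard error 0.410), a 4.87-fold lower level. It was -2.73 without control library 4 and -1.81 without treated library 1. These values rest on 61 reads over the treated and 306 over the control libraries.

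cyp-13A6 had the widest spread among the controls in normalized counts, though not on the log2 scale. It had 84.3, 83.6 and 97.8 normalized counts in treated cultures, and 165, 425 and 279 in control cultures. The treated cultures lay close together and the controls differed among themselves by more than the treated mean. The means were 88.6 ± 7.99 normalized counts in treated and 290 ± 131 in control cultures (SD, n = 3 each). The log2 fold change was -1.60 (standard error 0.249). It was -1.95 without control library 4 and -1.27 without control library 5. A small noncoding gene, T10B9.13, overlaps cyp-13A6 on the other strand and had 0 reads in all 6 libraries. The kit as named does not mark strand, so reads of that overlap cannot be assigned.

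cyp-13A7 is read from the opposite strand to its neighbours, and its values had the same order. It had 30.3, 34.2 and 31.3 normalized counts in treated cultures, and 65.4, 113 and 73.9 in control cultures. The treated values were almost equal, and the lowest control was 1.91 times the highest treated value. The means were 31.9 ± 2.02 normalized counts in treated and 84.1 ± 25.4 in control cultures (SD, n = 3 each), a log2 fold change of -1.33 (standard error 0.264).

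cyp-13A5 was the member with the highest level per length of exon. It had 197, 163 and 199 normalized counts in treated cultures, and 272, 408 and 423 in control cultures. Again library 4 was the control nearest to the treated cultures. The means were 187 ± 20.2 normalized counts in treated and 368 ± 83.2 in control cultures (SD, n = 3 each). The log2 fold change was -0.95 (standard error 0.172). It was -1.16 without control library 4 and -0.84 without control library 6.

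The members at the left end of the array differed less. cyp-13A2 had 178, 162 and 243 normalized counts in treated cultures, and 252, 350 and 245 in control cultures. Its groups only just failed to overlap, between treated library 3 and control library 6, and under quantile normalization or upper-quartile scaling they did overlap. Its log2 fold change was -0.54 (standard error 0.181). cyp-13A1 had 16.9, 30.4 and 15.6 normalized counts in treated cultures, and 20.2, 36.2 and 21.3 in control cultures. Treated library 2 lay over control libraries 4 and 6, so the groups overlapped, and the log2 fold change of -0.31 (standard error 0.388) was smaller than its error.

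The last 2 members were barely detected. cyp-13A3 had 8, 5 and 9 reads in treated libraries, and 2, 5 and 6 in control libraries, and it was the one member with a higher mean in treated cultures (7.74 ± 3.60 against 4.54 ± 2.67 normalized counts, SD, n = 3 each). cyp-13A8 had 1, 0 and 7 reads in treated libraries, and 6, 7 and 9 in control libraries. The count of 0 for cyp-13A8 allows up to 2.85 normalized counts in treated library 2 (3 reads, counting error only). In both genes the groups overlapped and no library had over 9 reads, so no difference can be read from either gene. The pseudogene cyp-13A9 had 2 reads in treated library 1 and 0 in the 5 others.

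**Figure D1:**
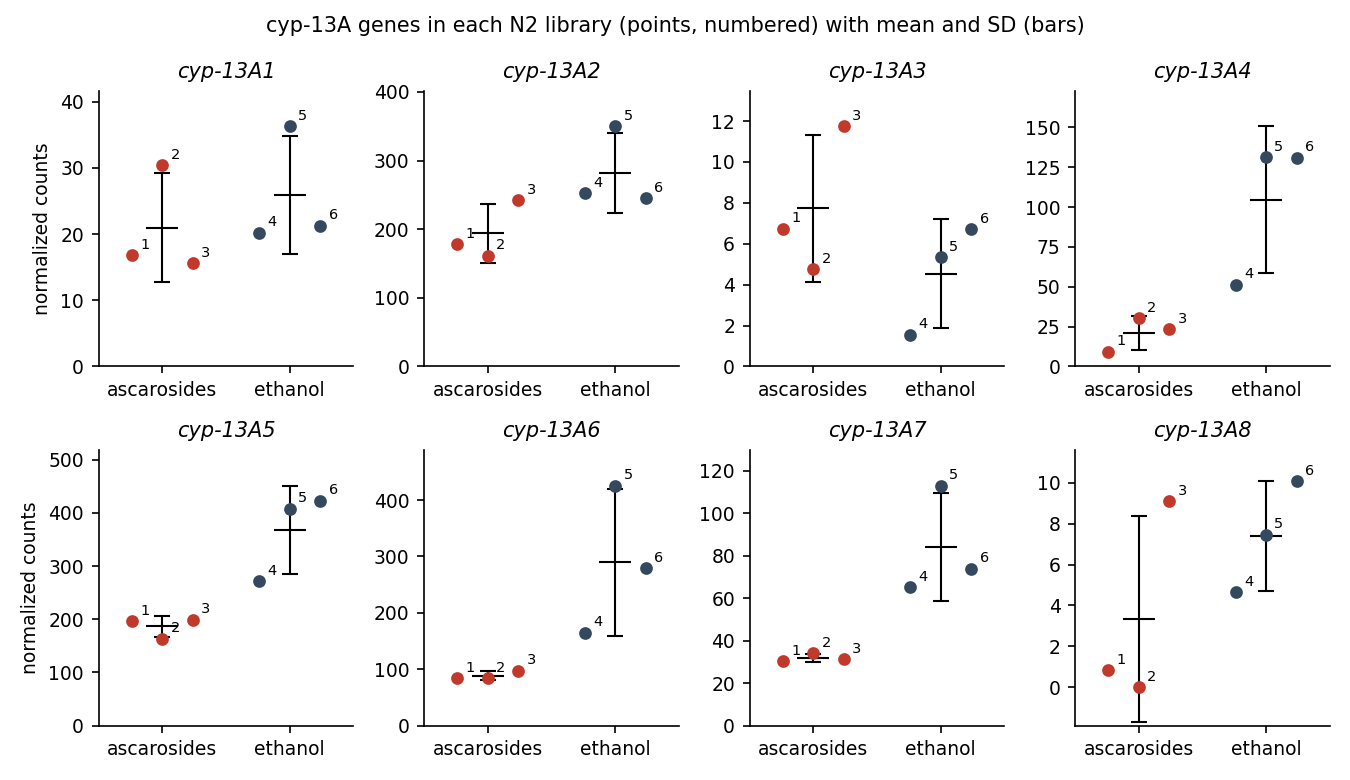
Normalized counts (y axis, linear and different in each panel) of each cyp-13A gene in the 3 ascaroside-treated (red, left) and 3 ethanol control cultures (dark, right). Points are libraries, numbered 1 to 6, and bars are the mean and SD. For cyp-13A4, cyp-13A5, cyp-13A6 and cyp-13A7 every red point lies well under every dark one, and control library 4 is the lowest control.

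**Figure D2:**
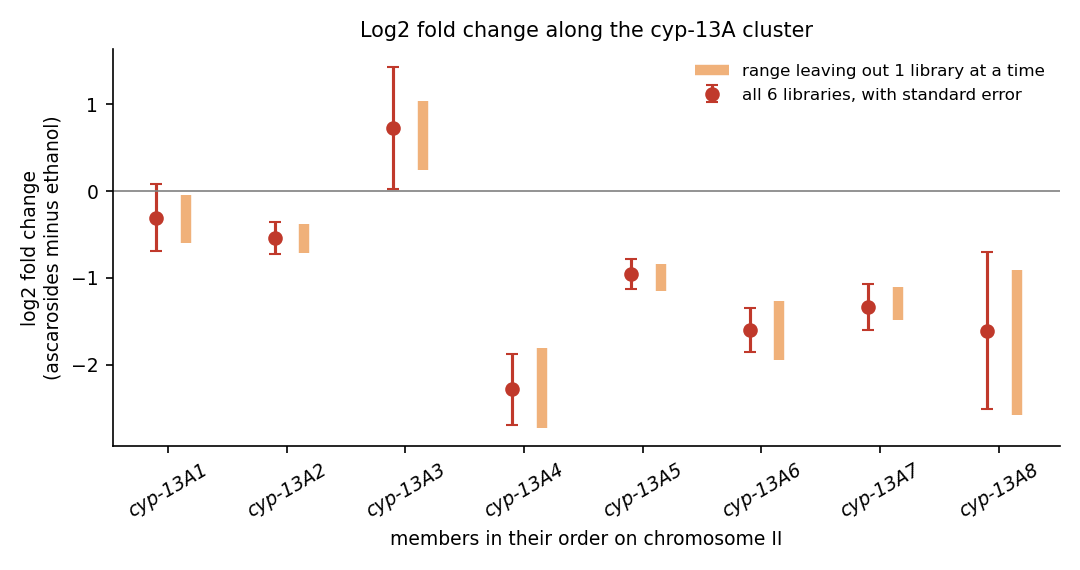
Log2 fold change (y axis, treated minus control, from limma) of the 8 members in their order on chromosome II. Red points with bars are the estimates with their standard error from all 6 libraries, and orange bars span the estimates with 1 library left out at a time. cyp-13A4 is lowest at -2.28, and cyp-13A3 alone is above 0.

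Summed over the 8 members, the cluster had 523, 509 and 631 normalized counts in treated cultures, and 832, 1477 and 1191 in control cultures. The groups did not overlap, and library 4 was again the control with the smallest sum. The other P450 genes together had 8258 ± 214 normalized counts in treated and 8660 ± 653 in control cultures (SD, n = 3 each). The cluster accordingly made up 6.29% ± 0.758 of all P450 counts in treated and 11.7% ± 2.29 in control cultures (SD, n = 3 each).

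The make-up of the cluster also differed in part. cyp-13A2, cyp-13A5 and cyp-13A6 held 84.6% ± 3.79 of its counts in treated and 80.8% ± 1.72 in control cultures (SD, n = 3 each). This joint share overlapped between the groups. The share of cyp-13A6 was 16.0% ± 0.482 in treated and 24.0% ± 4.53 in control cultures, and that of cyp-13A4 was 3.82% ± 2.11 in treated and 8.69% ± 2.43 in control cultures (SD, n = 3 each). The share of cyp-13A2 went the other way, 34.7% ± 3.39 in treated and 24.9% ± 4.94 in control cultures. cyp-13A5 kept nearly the same share, 33.8% ± 3.36 in treated and 32.0% ± 4.004 in control cultures. In library 4 the share of cyp-13A6 was 19.8% and that of cyp-13A4 6.17%, between the treated mean and the other controls. The cyp-13A4 share in treated library 2, 5.98%, was close to that of library 4.

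**Figure D3:**
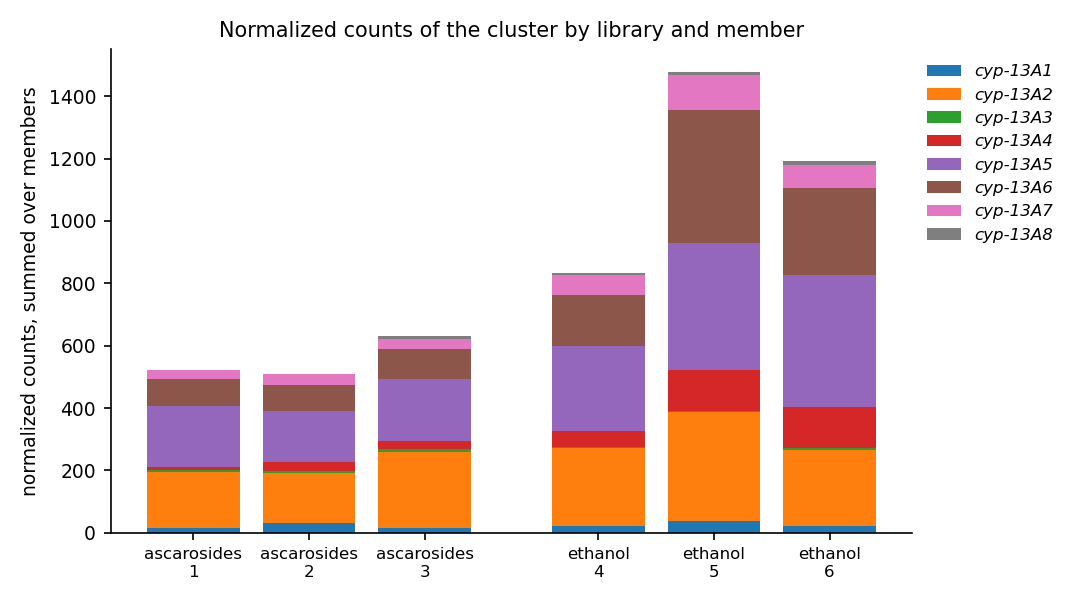
Normalized counts (y axis, from 0) summed over the 8 members, with 1 stacked bar for each library and 1 colour for each gene, the treated cultures on the left. The treated bars reach 509 to 631 and the control bars 832 to 1477, and the bands of cyp-13A6 and cyp-13A4 are the ones that are thinnest relative to the controls.

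For levels between genes, reads were divided by the length of exon and the reads on genes (RPKM, the usual unit of reads per kilobase, scaled to library size). cyp-13A5 led in both groups, with 7.27 ± 1.03 RPKM in treated and 14.3 ± 2.79 in control cultures (SD, n = 3 each). In treated cultures cyp-13A2 (5.60 ± 1.57 RPKM) followed, overlapping with cyp-13A5, and then, each apart from the one above it, cyp-13A6 (3.27 ± 0.487 RPKM) and cyp-13A7 (1.27 ± 0.0973 RPKM). cyp-13A4 (0.828 ± 0.426 RPKM) and cyp-13A1 (0.761 ± 0.279 RPKM) overlapped with each other there. In control cultures cyp-13A6 (10.7 ± 4.84 RPKM) came next and cyp-13A2 (8.17 ± 1.82 RPKM) after it, and neither was apart from the gene above it. cyp-13A4 (4.07 ± 1.71 RPKM) and cyp-13A7 (3.38 ± 1.05 RPKM) overlapped in the controls, and cyp-13A1 (0.956 ± 0.341 RPKM) lay apart under both. cyp-13A3 and cyp-13A8 were at or under 0.303 RPKM on average in either group. Over all 6 libraries cyp-13A5 was at the 54.2 percentile of RPKM among the 14803 tested genes with a length, cyp-13A6 at the 43.8 percentile and cyp-13A4 at the 25.1 percentile, so the cluster was weakly to moderately expressed at this stage.

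The deviations from the group means, which do not enter the fold changes but do enter their standard errors, were set side by side for the 5 members whose mean was 50 normalized counts or more. Of these, cyp-13A4 and cyp-13A7 reached that mean through the controls alone. Control library 4 was under the control mean for all 5, by 0.71 for cyp-13A6 and 0.89 for cyp-13A4 on the log2 scale. Control library 5 was over it for all 5, by 0.66 for cyp-13A6 and 0.46 for cyp-13A7. Control library 6 was over it for cyp-13A4, cyp-13A5 and cyp-13A6 and under it for cyp-13A2 and cyp-13A7. No treated library deviated in the same direction for all 5. Treated library 1, for example, was under the treated mean for cyp-13A4 (-0.96) and over it for cyp-13A5 (0.08). This is a description over 3 cultures in each group.

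In bulk RNA from whole larvae, fewer cells of a type and less RNA per cell cannot be told apart. The 10 intestinal markers summed to 100461 to 113770 normalized counts in treated and 91093 to 112197 in control cultures, which overlapped, and none of the 10 was at 0. Most of that sum was asp-1, with 63174 to 70739 in treated and 53686 to 66091 in control cultures. Of the 10 intestinal markers 1 passed the test, the gut esterase gene ges-1, which rose (1120 ± 75.6 normalized counts in treated and 649 ± 10.1 in control cultures, SD, n = 3 each, limma adjusted p = 4.2e-04). elt-2, the GATA factor that defines the intestine, had 139 ± 19.5 in treated and 156 ± 19.7 in control cultures (SD, n = 3 each). The 5 body wall muscle markers summed to 106682 to 131086 normalized counts in treated cultures, and to 131136 in control library 4 against 83540 and 89261 in libraries 5 and 6, so library 4 stood apart from the other controls there as well. The 5 neuronal markers summed to 12756 to 13444 in treated cultures, and to 13027 in control library 4 against 10044 and 11261 in libraries 5 and 6. That gap between controls lay in egl-3, with 8157 in library 4 against 5096 and 6492 in libraries 5 and 6. The neuronal markers rab-3 (960, 935 and 970 in libraries 4 to 6) and snb-1 (3021, 3083 and 2982) did not show it. The 5 epidermal markers summed to 35652 to 39792 in treated and 38078 to 41853 in control cultures. None of the muscle, neuronal or epidermal markers was at 0. The 7 adult and germline markers summed to at most 51.3 in any library, with msp-3 at 0 throughout. The part of these differences in the cyp-13A values was not tested.

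The genes on either side of the cluster were measured in the same libraries. The 5 annotated genes on each side and those between the members come to 13, of which 12 are in the table and 4 passed the filter on low values. None of the 4 passed the test at an adjusted p under 0.05. To the left, T10B9.9 had a log2 fold change of 0.34 (standard error 0.285, limma adjusted p = 0.631) and ZK1321.4 one of -0.05 (standard error 0.124, adjusted p = 0.893). To the right, eyg-1 had one of -0.28 (standard error 0.374, adjusted p = 0.788) and ZK938.3 one of 0.52 (standard error 0.390, adjusted p = 0.590). Each of these estimates lies within 2 standard errors of 0. That of eyg-1 also lies within 2 standard errors of the values of cyp-13A1 (-0.31), cyp-13A2 (-0.54) and cyp-13A5 (-0.95).

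Of the other cyp-13 genes, cyp-13A10 fell. It lies on chromosome II as well, outside the array, and had 116, 147 and 134 normalized counts in treated cultures, and 254, 353 and 320 in control cultures. The groups were well apart, and library 4 was again the lowest control. Its log2 fold change was -1.21 (standard error 0.166, limma adjusted p = 4.06e-04). cyp-13A12, known for its part in the behavioural response to reoxygenation, had 47.6 ± 10.2 normalized counts in treated and 50.3 ± 7.34 in control cultures (SD, n = 3 each, adjusted p = 0.913). cyp-13B1 had 537 ± 20.1 normalized counts in treated and 563 ± 132 in control cultures (SD, n = 3 each, adjusted p = 0.935). cyp-13A11 and cyp-13B2 had means of at most 13.5 normalized counts in either group and did not pass the test.

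Over all P450 genes outside the cluster, 62 of 72 could be tested. At an adjusted p under 0.05 in limma, 5 were lower and 4 higher in treated cultures, where 1.46% of all genes tested were lower and 2.06% higher. Their median log2 fold change was -0.06. With eBayes run without its trend in mean level, none of these P450 genes and 1 gene of all passed. The largest fall was that of cyp-33D3, with 43.0, 48.5 and 56.1 normalized counts in treated cultures and 134, 305 and 246 in control cultures (log2 fold change -2.12, standard error 0.255, adjusted p = 1.3e-04). The treated values were close together, as in cyp-13A5, cyp-13A6 and cyp-13A7, and library 4 was the lowest control. cyp-34A7 fell to 14.3 ± 3.32 normalized counts in treated cultures, against 54.7 ± 16.3 in control cultures (SD, n = 3 each, limma adjusted p = 0.00419). Its family member cyp-34A9 fell to 133 ± 11.6 in treated cultures, against 245 ± 36.7 in control cultures (SD, n = 3 each, limma adjusted p = 0.00504).

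The P450 genes called higher were of other families than those called lower. Among genes that did not pass the test the families were mixed. cyp-33B1 had a log2 fold change of 1.46 (limma adjusted p = 0.0627) and cyp-35D1 one of -1.41 (adjusted p = 0.249). The largest rise of a P450 gene, 2.32 in cyp-35A1, did not pass (adjusted p = 0.122). cyp-35C1, of a family known for induction by foreign compounds, had 380 ± 46.7 normalized counts in treated and 200 ± 30.3 in control cultures (SD, n = 3 each, limma adjusted p = 0.00176). cyp-36A1, which acts in the HIF-1 pathway, had 155 ± 17.6 in treated and 75.4 ± 25.3 in control cultures (SD, n = 3 each, limma adjusted p = 0.0103). cyp-25A1 had 39.6, 51.3 and 56.1 in treated cultures and 16.3, 16.0 and 19.0 in control cultures (log2 fold change 1.45, limma adjusted p = 0.0126). For cyp-36A1 the adjusted p was 0.110 without treated library 2, and for cyp-25A1 it was 0.110 without treated library 2 and 0.0983 without treated library 3. cyp-25A2 was also higher and cyp-33D1 lower (limma adjusted p = 0.0233 and 0.0360), and each lost its call when any of 4 single libraries was left out: for cyp-25A2 treated library 1 (0.0597), 2 (0.183) or 3 (0.104) or control library 6 (0.0896), and for cyp-33D1 treated library 1 (0.231) or 2 (0.129) or control library 5 (0.117) or 6 (0.139). With robust eBayes the adjusted p of cyp-33D1 was 0.0742. Leaving out treated library 2 or 3 brought the 4 higher genes to 1 and 2.

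**Figure D4:**
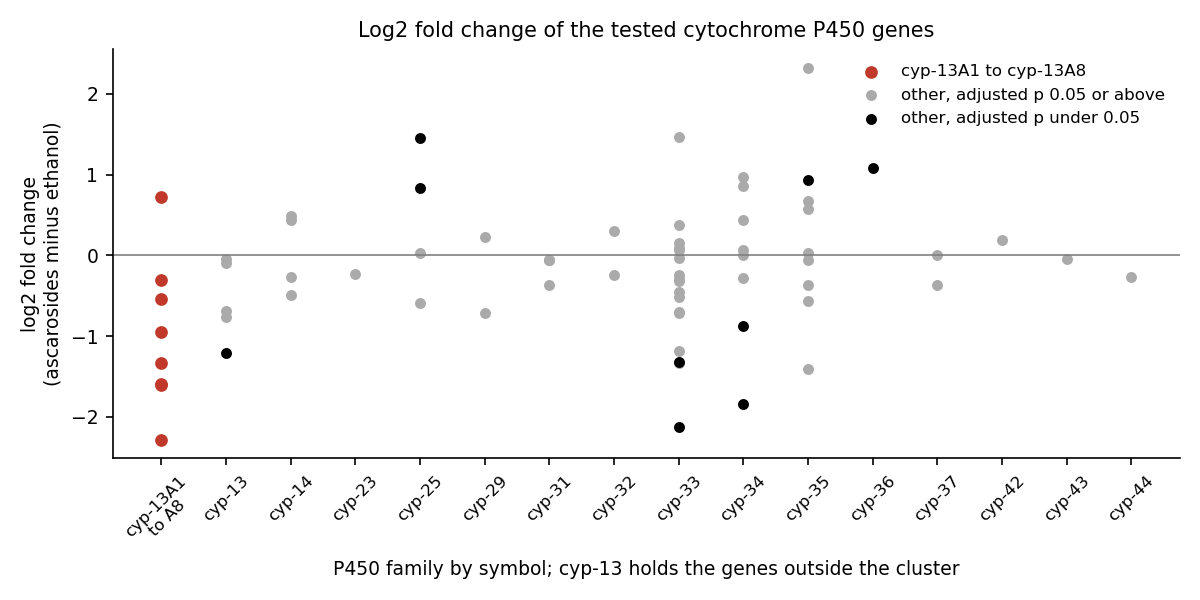
Log2 fold change (y axis, treated minus control, from limma) of every tested P450 gene, by family (x axis). The cyp-13A cluster is in red with no test, other genes are black at an adjusted p under 0.05 and grey otherwise. The cluster reaches from -2.28 to 0.73, with 7 of 8 members under 0, and the genes outside it lie on both sides of 0.

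The partners of P450 enzymes did not move as a group. emb-8, the NADPH-cytochrome P450 reductase that passes electrons to the microsomal enzymes, had 2594, 2724 and 2720 normalized counts in treated cultures, and 3162, 3698 and 2791 in control cultures. The groups did not overlap but the difference was small, with a log2 fold change of -0.25 (standard error 0.114, limma adjusted p = 0.295). cytb-5.1, a cytochrome b5 that can also give the enzymes electrons, rose to 2707 ± 147 in treated cultures, against 1712 ± 336 in control cultures (SD, n = 3 each, log2 fold change 0.68, limma adjusted p = 0.00492). Its adjusted p was 0.0558 without treated library 2. cytb-5.2 had 1434 ± 96.4 in treated and 1474 ± 296 in control cultures (SD, n = 3 each, adjusted p = 0.967).

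P450 enzymes need haem, which C. elegans takes from its food. Of the 6 tested haem-responsive hrg genes 1 passed the test. This was hrg-7, which codes for a secreted aspartic protease of haem signalling between tissues, and it rose to 1553 ± 113 normalized counts in treated cultures, against 934 ± 188 in control cultures (SD, n = 3 each, limma adjusted p = 0.00281). The haem transporter gene hrg-1 had 287 ± 30.7 in treated and 205 ± 51.9 in control cultures, with no overlap (SD, n = 3 each, adjusted p = 0.153). Of the 9 regulators of detoxification genes none passed the test. nhr-8, a nuclear receptor of xenobiotic resistance, had a log2 fold change of 0.11 (standard error 0.167), and nhr-176, a receptor that controls a cyp-35 gene, one of -0.41 (standard error 0.257). The Mediator subunit gene mdt-15 had 4930 ± 310 in treated and 3945 ± 544 in control cultures (SD, n = 3 each, limma adjusted p = 0.160). With 1 library left out its adjusted p ranged from 0.00325 (control library 4) to 0.512.

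Among genes outside the cluster whose mean was 50 normalized counts or more, the 5 whose log2 values over the 6 libraries followed the mean profile of the members most closely were C56A3.5, F45D11.1, the kinetochore gene spdl-1, the glutathione S-transferase gene gst-21 and tag-77. They were ranked by Pearson r over the 6 libraries, which was 0.996 for C56A3.5 and 0.994 for gst-21. That ranking takes in the difference between the groups as well as the low value of control library 4, and it is a description. The profile gave every member equal weight, so the barely detected cyp-13A3 and cyp-13A8 counted in it as much as the others. In spdl-1 and gst-21 treated library 3 lay over control library 4, which it did not in cyp-13A4, cyp-13A5, cyp-13A6 or cyp-13A7. The sizes of the difference varied. gst-21 had 38.8, 49.4 and 84.8 normalized counts in treated cultures and 78.6, 192 and 150 in control cultures (log2 fold change -1.25), and tag-77 had 644, 651 and 712 in treated cultures and 728, 803 and 785 in control cultures (log2 fold change -0.21). No test is given for these genes, since they were picked on values that include this difference.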

How the data were processed

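RNA was poly(A)-selected and sequenced as single reads of 50 bases. The authors checked reads with ShortRead, aligned them with tophat2, used HTSeq-count for reads on genes and scaled every library with a DESeq size factor, and the deposited signal is that normalized count. Versions are not given in the sources used here. The columns name the group but not the replicate number of the labels, and 0 other columns of values were present. The 5 lines for reads outside genes (33.1% to 41.8% of a column) were left out.

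The value of a single read was found for each column, and 100% of values were whole multiples of it (tolerance 0.01 reads). limma 3.58.1 in R 4.3.3 (eBayes with trend, two-sided) was run on log2(normalized count + 1) for the 14965 genes whose mean reached 5, with Benjamini-Hochberg adjustment. Alternatives were pseudocounts of 0.5 and 5, no minimum and a minimum of 50, quantile and upper-quartile scaling, 2 other forms of eBayes, edgeR 4.0.16, DESeq2 1.42.0 and leaving out each library. The scripts were tested on simulated data. Gene names came from a gene name table and the WBcel235 annotation. The members, lists and tests were chosen with earlier results of these data known. Named genes are the members, other cyp-13 genes, listed partners and regulators, neighbours, the other P450 genes with the smallest p and the 5 most similar profiles.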

Additional observations from a re-analysis of the deposited data

How the results depend on the processing

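All 8 members kept the sign of their log2 fold change under every alternative run, and the median of the members ranged from -1.32 to -0.88 with one library left out (-0.83 with a pseudocount of 5). The members without overlap were 4 under quantile normalization and upper-quartile scaling, which left out cyp-13A2, and 5 or 6 with one library left out. Dropping a library leaves fewer values to keep apart, so non-overlap is then easier to reach. The figure for all genes tested, 9.53%, holds only for the deposited scaling with every library kept. The counts of 5 or 6 therefore have no background here and cannot show that the non-overlap is stable. Without the trend in eBayes 1 gene of all was called (1872 at an unadjusted p under 0.05), and of the other P450 genes 0 lower and 0 higher (21 of both directions at an unadjusted p under 0.05). With one library left out the genes called in all ranged from 217 to 1436 (without treated library 2 and without control library 4), against 527 with all libraries. The other P450 genes called ranged from 4 to 7 lower and from 1 to 6 higher. The cause was not tested. The mean Pearson r between deviations of the 5 members whose mean was 50 or more (cyp-13A4 and cyp-13A7 through the controls alone) was 0.57 over 10 pairs and 6 libraries. It was 0.21 once control library 4 was left out, 0.39 once control library 5 was and 0.70 once treated library 2 was. It thus depends on control libraries 4 and 5, and most on library 4. Signs changed for values near 0: cytb-5.2 had a log2 fold change of 0.0036 with upper-quartile scaling, and with one library left out the ranges were -0.20 to 0.087 for cytb-5.2, -0.22 to 0.087 for cyp-13A12, -0.21 to 0.13 for cyp-13B1, -0.095 to 0.25 for nhr-8 and -0.18 to 0.056 for ZK1321.4. For the other genes named, with all libraries kept, 16 values lost their call, all of them without the trend or with robust eBayes, and 0 gained one. No paired analysis was possible because no column name holds a replicate number shared by both groups. Members with under 10 reads in a library are limited by depth.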
